A study of Mus musculus with 5 samples.

Results

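Tight junction, connexin and keratin genes were followed in ovarian granulosa cells of knockout and wild type mice. The knockout of C/EBPα and C/EBPβ was directed to these cells. The 9 genes were the claudin genes Cldn1 and Cldn11, the tight junction genes Ocln and Tjp1, the cadherin gene Cdh2, the connexin gene Gja1 and the keratin genes Krt7, Krt8 and Krt18. Every probe set annotated to one of these symbols alone was used, 21 of the 45101 probe sets on the array, for 9 of 18194 named genes. The genes were chosen by measured values, a low Cldn1 and a high Krt8 and Krt18 in the knockout at 8 h, so that contrast is a description with no test. The series held 5 Affymetrix expression arrays, 1 for each of 5 groups. All mice were primed with eCG (equine chorionic gonadotropin), a hormone that makes follicles grow, and 48 h later given hCG (human chorionic gonadotropin), a substitute for the luteinizing hormone surge. Knockout mice, homozygous for floxed alleles of both genes (CEBPα/β fl/fl fl/fl) and carrying Cyp19-cre, were sampled 4, 8 and 24 h after hCG, and wild type mice 8 and 24 h after hCG. The labelled age was 23 days for the 4 h and 8 h groups and 24 days for the 24 h groups. In the knockout, Cre recombinase is driven by Cyp19 sequences, so deletion is directed to granulosa cells and not to the other cells of the ovary. Whether the wild type mice carried floxed alleles or Cre, and how many ovaries went into an array, were not given in the sources used here.

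Tight junctions seal the space between neighbouring epithelial cells. Claudins and occludin span the membrane there, and zonula occludens scaffolds such as the product of Tjp1 tie them to actin. Granulosa cells are an avascular epithelium held together mainly by N-cadherin, the product of Cdh2, and coupled by gap junctions made of the connexin that Gja1 encodes. Keratins of simple epithelia form filaments from pairs of a type II and a type I chain, and Krt8 and Krt18 encode such a pair. Krt7 encodes another type II chain.

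The promoters of Cldn1, Krt8 and Krt18, the genes that define the group, are shown because the results turn on these 3 genes and because Krt8 and Krt18 were higher on the same arrays. Sequences are RefSeq's for build GRCm38.p6 and run over the 250 bases before the annotated start, 5′ to 3′ on the gene's strand. They lie at chr16:26371840-26372089 (minus strand) for Cldn1, chr15:102004343-102004592 (minus strand) for Krt8 and chr15:102027966-102028215 (plus strand) for Krt18. Capitals mark matches to the motifs searched.
Cldn1: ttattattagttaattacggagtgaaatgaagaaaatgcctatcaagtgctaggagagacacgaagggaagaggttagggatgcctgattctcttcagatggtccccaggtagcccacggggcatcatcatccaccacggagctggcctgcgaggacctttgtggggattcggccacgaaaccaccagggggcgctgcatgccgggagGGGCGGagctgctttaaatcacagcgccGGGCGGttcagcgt
Krt8: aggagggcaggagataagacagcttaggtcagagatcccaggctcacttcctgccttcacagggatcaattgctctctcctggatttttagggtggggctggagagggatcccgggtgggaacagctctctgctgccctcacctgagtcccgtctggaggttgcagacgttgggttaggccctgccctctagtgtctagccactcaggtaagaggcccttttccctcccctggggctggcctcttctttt
Krt18: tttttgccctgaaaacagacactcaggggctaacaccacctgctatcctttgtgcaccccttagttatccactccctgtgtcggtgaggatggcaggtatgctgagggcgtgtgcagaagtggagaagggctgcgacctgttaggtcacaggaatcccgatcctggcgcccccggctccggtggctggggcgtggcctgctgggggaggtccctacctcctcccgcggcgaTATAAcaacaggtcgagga
The Cldn1 window held 2 GC boxes (GGGCGG), 42 to 37 and 14 to 9 bases before the start, a motif present in 32.7% of 32851 promoters. The Krt18 window held 1 TATA match (TATAA), 19 to 15 bases before the start, found in 22.8% of promoters. The Krt8 window held no match to any motif searched. Of the 9 genes, 8 had a promoter in the table, and Cdh2 had none. The C/EBP motif TTGCNNAA, read on both strands and held by 9.56% of all promoters, matched in 0 of the 8, and so did its looser form TTNNGNAA, held by 36.8%, which overlaps the first. Gja1 held the one match to the AP-1 motif TGANTCA (6.75% of promoters), and GC boxes were also in the windows of Tjp1, Ocln and Krt7. The motifs TGACGTCA (CRE, 1.55% of promoters), CAAGGTCA (NR5A, 1.33%) and CACGTG (E-box, 6.02%) matched in none of the 8. These matches describe letters in a window and say nothing of binding.

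With 1 array per group there was no replicate error, and no difference below has a replicate check or a p-value. A size rule took the place of a test. To pass, a gene needed a 2-fold or greater ratio of intensities (1 on the log2 scale) with its higher value at or above a floor of 22, the 40th percentile of all values. A fold whose lower value was under the floor was computed with 22 in its place and is a lower bound, written "at least". As a gauge of technical spread, 2 probe sets of one gene gave genotype differences that lay a median of 0.16 apart on the log2 scale at 8 h (90th percentile 0.53) and 0.28 apart at 24 h (90th percentile 0.81). The knockout array at 4 h was on another scale, with a median intensity of 54 against 31 or 32 on the others. Its raw values are therefore not compared with theirs. Cebpa was 685 (wild type) and 19 (knockout) at 8 h, and 352 against 38 at 24 h. Cebpb was 7436 against 1127 at 8 h and 3976 against 85 at 24 h. Its second probe set read 2926 against 275 at 8 h and 1571 against 23 at 24 h. Cebpb signal in the knockout at 8 h was therefore lower than in wild type but well above the floor. The deleted part of either gene was not given in the labels. On its own scale the knockout array at 4 h read 40 for Cebpa and 42 for Cebpb. All 11 granulosa cell markers analysed were at or above the floor on all 5 arrays, with a summed intensity of 44735 (wild type) and 42511 (knockout) at 8 h and 58300 and 56715 at 24 h. Between genotypes 1 of the 11 passed at 8 h, Fst, 2.14-fold lower in the knockout (median of the list -0.02), and 0 at 24 h (0.18). In each genotype 4 of 11 were higher at 24 h than at 8 h. Among all genes above the floor 5.63% passed between genotypes at 8 h and 7.04% at 24 h. With time 5.55% were higher in wild type and 6.85% in the knockout.

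**Figure D1:**
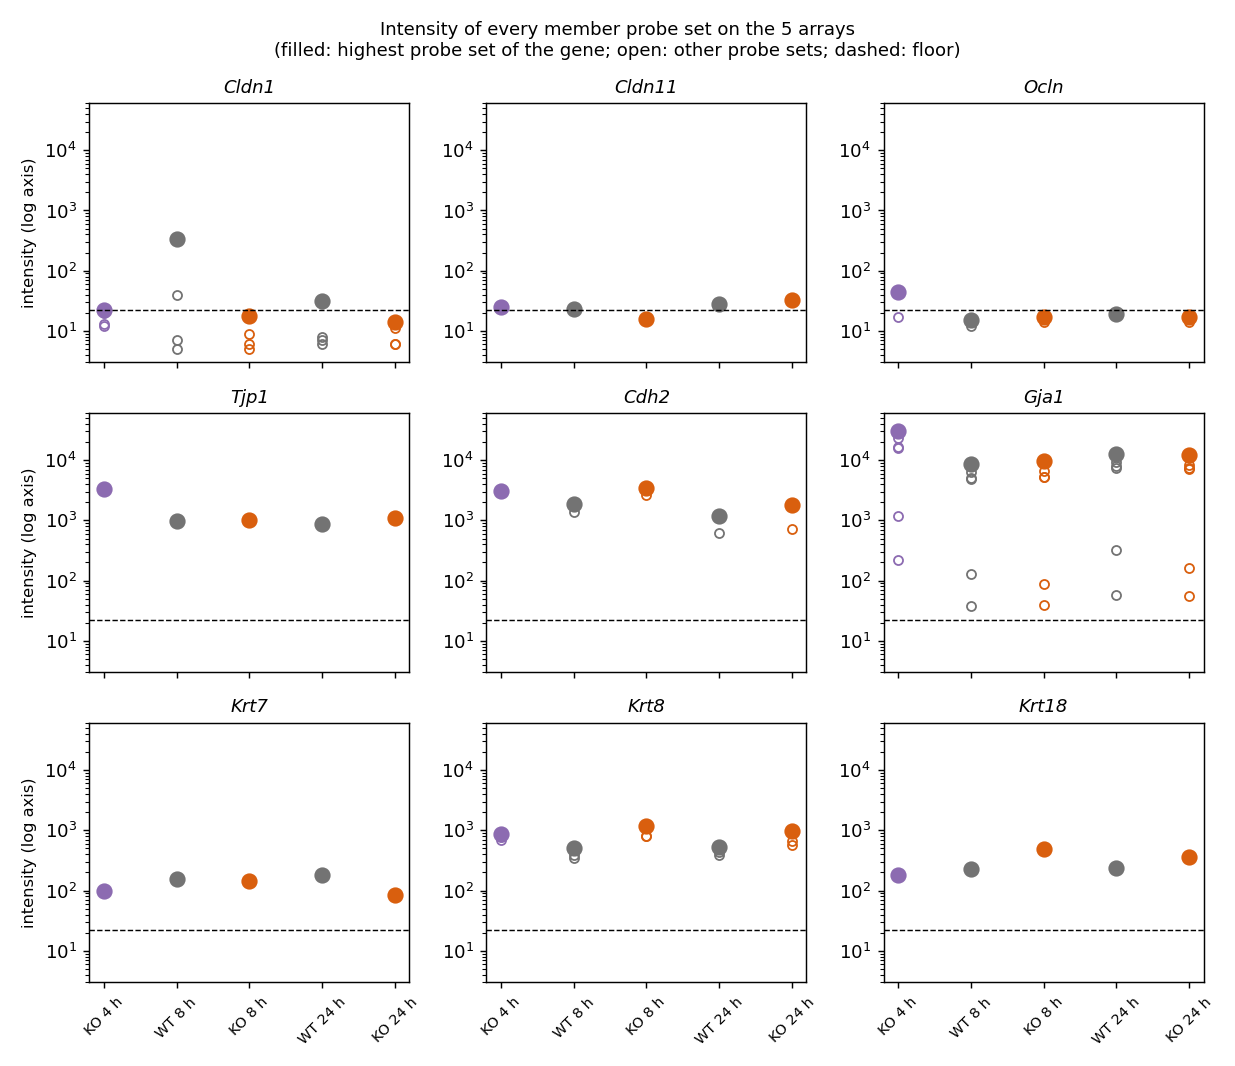
Intensity (log axis) of each of the 21 probe sets of the 9 genes on the 5 arrays, 1 array per group, with KO for knockout and WT for wild type. Filled points are the probe set of highest mean per gene, open points the other probe sets, and the dashed line the floor of 22. The 4 h array was on another scale, so its points are not to be compared with the others or with the floor. Among the arrays at 8 and 24 h, Cldn1 stands at 333 in wild type at 8 h and at 31 or less elsewhere. Krt8 and Krt18 are higher on both knockout arrays at 8 and 24 h than on the wild type arrays of the same time.

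Among the claudin genes, Cldn1 was seen clearly on a single array. Its highest probe set (1437932_a_at) gave intensities of 333 (wild type, 8 h), 18 (knockout, 8 h), 31 (wild type, 24 h) and 14 (knockout, 24 h). Wild type at 8 h stood alone, above 83.0% of that array's probe sets, and both knockout values were under the floor. At 8 h the knockout was at least 15.1-fold lower, and this is the difference that chose the gene. Between 8 and 24 h Cldn1 was 10.7-fold lower in wild type at the later time. The knockout was under the floor at both times, so its own change could not be measured. The difference between the 2 time courses passed the rule, at 3.43 on the log2 scale with the knockout set to the floor and 3.06 with its readings as they were. At 24 h the call of a lower level in the knockout (log2 difference of -1.15, at least 1.41-fold) rested on 31 against 14. It was lost with the mean of all probe sets (-0.23), with the floor put in place of lower values (-0.50) and with a floor at the 50th percentile.

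The other Cldn1 probe sets were dimmer. A second (1450014_at) read 39 (wild type) and 9 (knockout) at 8 h, at least 1.77-fold lower in the knockout. It was 8 and 11 at 24 h, so it gave no level for either genotype there. The remaining pair (1438851_x_at and 1438850_at) lay between 5 and 7 on the arrays at 8 and 24 h, under the floor throughout. Cldn1 was thus read by 2 of its 4 probe sets, which went the same way at 8 h and differed in size.

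Cldn11, a claudin of Sertoli cells and myelin, was near the floor on every array. It read 23 (wild type) and 16 (knockout) at 8 h, and 28 and 33 at 24 h. No genotype difference passed the rule (-0.52 at 8 h and 0.24 at 24 h). The knockout was higher at 24 h than at 8 h by 1.04 on the log2 scale, at least 1.5-fold, a call lost after quantile normalization (0.993) and median centring (0.999), with the floor put in place of lower values (0.58) and with a floor at the 50th percentile.

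Ocln, which encodes occludin, was under the floor on all 4 arrays at 8 and 24 h. Its brighter probe set read 15 (wild type) and 17 (knockout) at 8 h, and 19 and 17 at 24 h. After quantile normalization the knockout array at 4 h gave 29.0, above the floor of 21.1 on that scale, and wild type at 24 h stood at that floor. No genotype comparison of Ocln was possible at these levels. Tjp1 was well above the floor and nearly level. It read 976 (wild type) and 1016 (knockout) at 8 h, and 864 and 1083 at 24 h. Its differences of 0.06 and 0.33 on the log2 scale were equalled or exceeded by 83.1% and 45.6% of the genes above the floor.

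Cdh2 fell just short of the rule on the higher side at 8 h. Its brighter probe set (1418815_at) read 1854 (wild type) and 3504 (knockout) at 8 h, and 1165 and 1791 at 24 h. The second (1449244_at) read 1363 and 2672 at 8 h, and 616 and 708 at 24 h. The knockout was higher on both probe sets at 8 h, by 0.92 and 0.97, closer together than the median pair of probe sets. At 24 h they gave 0.62 and 0.20. From 8 h to 24 h Cdh2 was lower in both genotypes, by -0.67 and -1.15 in wild type and by -0.97 and -1.92 in the knockout. The second probe set passed the rule in both genotypes and the brighter one in neither, so the size of this change depends on the probe set.

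Gja1 was among the brightest genes of the series and showed little difference between genotypes. Its brightest probe set (1437992_x_at) read 8705 (wild type) and 9720 (knockout) at 8 h, and 12437 and 12324 at 24 h, above 99.6% or more of each array. The 2 genotypes were closer to each other at each time than the 2 times were within a genotype. Over the 6 probe sets the genotype difference at 8 h ran from -0.51 to 0.16 and at 24 h from -1.0 to -0.01. The dim 1415801_at gave the lowest value at both times, with 127 and 89 at 8 h and 328 and 164 at 24 h, and reached the rule at 24 h (2.0-fold lower). The other 5 lay within 0.02 to 0.16 at 8 h and -0.20 to -0.01 at 24 h. All 6 were higher at 24 h than at 8 h in both genotypes, by 0.51 to 1.37 in wild type and 0.33 to 0.88 in the knockout, and 1415801_at alone passed the rule, in wild type.

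Krt8 and Krt18, the paired keratins of simple epithelia, were higher in the knockout at both times. The brightest Krt8 probe set (1420647_a_at) read 500 (wild type) and 1177 (knockout) at 8 h, and 528 and 971 at 24 h. Both wild type values were below both knockout values. Krt8 was 2.35-fold higher at 8 h, in the contrast that chose it, and 1.84-fold higher at 24 h, short of the rule. Its other probe sets read 384 and 352 in wild type against 815 and 801 in the knockout at 8 h, and 437 and 395 against 565 and 678 at 24 h. The 3 probe sets lay between 1.09 and 1.24 on the log2 scale at 8 h and spread further at 24 h, from 0.37 to 0.88.

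Krt18 was read by a single probe set (1448169_at), with 230 (wild type) and 490 (knockout) at 8 h, and 239 and 364 at 24 h. As for Krt8, the 2 wild type arrays were close and both knockout arrays stood above them. The knockout was 2.13-fold higher at 8 h and 1.52-fold higher at 24 h, where 20.3% of genes above the floor differed by as much. In order of level, wild type at 8 h and at 24 h were the lowest for both keratins, 0.08 (Krt8) and 0.06 (Krt18) apart on the log2 scale, which is less than the median gap of 0.20 between probe sets of a gene for that change. The knockout at 24 h came next and the knockout at 8 h highest, with differences of -0.28 and -0.43 between the times that did not pass the rule. Both genes were chosen for that 8 h knockout level, so its place in the order is a description.

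Krt7 went another way. It read 154 (wild type) and 144 (knockout) at 8 h, and 180 and 85 at 24 h. The knockout at 24 h stood below the other 3 arrays, 2.12-fold below wild type, and the 8 h arrays were level (-0.10). This call at 24 h stood under all alternatives run except the 3-fold threshold. The difference of the time courses was -0.99, short of the rule on deposited values and past it after each of the 3 further scalings (-1.09, -1.08 and -1.04). Krt7, like Krt18, had 1 probe set, so no second reading bears on it.

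**Figure D2:**
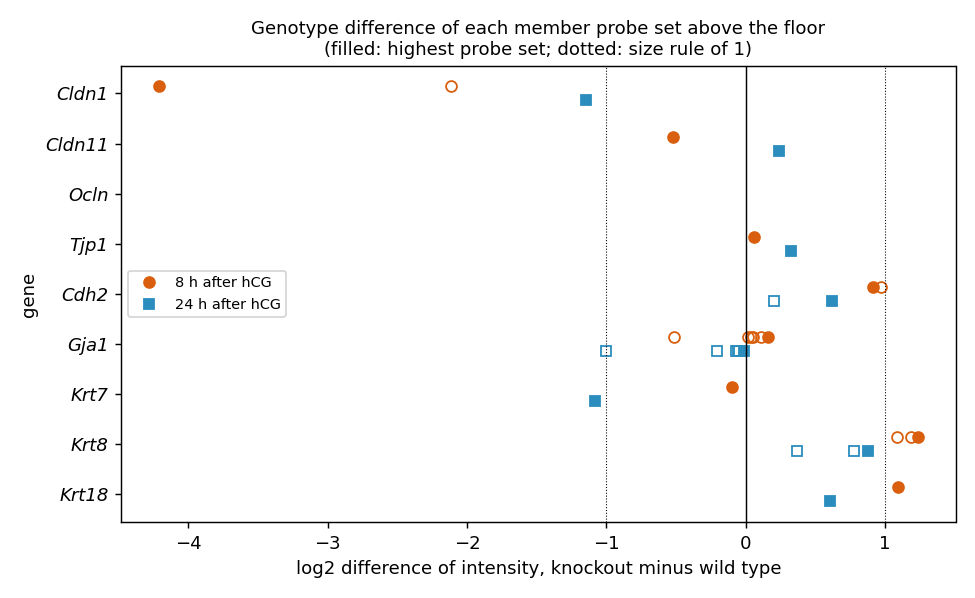
Log2 difference of intensity, knockout minus wild type, for each probe set above the floor (rows are genes, circles 8 h, squares 24 h; filled points are the probe set of highest mean). Ocln has no point because it was under the floor. Cldn1 lies far to the left at 8 h (-4.21), the 3 Krt8 probe sets lie between 1.09 and 1.24 at 8 h, and Krt7 lies at -1.08 at 24 h.

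Of the 9 genes, 8 were above the floor in the 8 h genotype comparison, and 1 was lower and 2 higher in the knockout, where 4.05% of all genes above the floor were lower and 1.58% higher (5.63% in all). Nothing is read from that count, since it chose the genes. At 24 h 2 of 8 were lower (Cldn1 and Krt7) and 0 higher, against 3.92% and 3.13% of all genes (7.04% in all). With time, 1 of 8 was lower in wild type (Cldn1), against 6.45%, and 0 higher, against 5.55% (12.0% in all). In the knockout 1 of 7 was higher (Cldn11), against 6.85%, and 0 lower, against 5.26% (12.1% in all). Of the differences between the time courses, 1 of 8 passed, in the higher direction (Cldn1), against 5.04%, with 3.09% of genes lower (8.13% in all). Cldn1 entered these counts through its level in wild type at 8 h, and the comparisons share arrays, so the counts describe the genes and are no support for one another.

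The knockout at 4 h could be compared with the knockout at 8 h only after the 5 arrays had been given the same distribution. Krt18 was then 127 at 4 h and 549 at 8 h, 4.32-fold higher, Krt8 560 and 1319 (2.35-fold) and Krt7 66.4 and 160 (2.40-fold). Cdh2 was also higher at 8 h (2.04-fold), and the brightest probe set of Gja1 (-0.57) and Tjp1 (-0.87) were lower, short of the rule. Of the 5 other Gja1 probe sets 2 passed, 1415801_at (-2.92) and 1438973_x_at (-1.81). Cldn1 was under the floor at both times. In all 4 of 7 genes were higher and 0 lower, but 17.9% of all genes were higher and 11.9% lower (29.8% in all), and 2 probe sets of a gene lay a median of 0.69 apart. With the values as deposited 1 gene was higher, namely Krt18, and 3 were lower, so of these calls that for Krt18 alone held under both scales. Krt8 and Krt18 were chosen for a high level on the 8 h knockout array, which this comparison uses. Their calls here are therefore a description and no separate support. In the junction and filament lists described next, the genes past the rule in this comparison were, besides the 4 named, Cldn10, Cldn34c1, Cgn, Amotl1, Krt5, Vim, Synm, Lmna, Plec and Eppk1 on the higher side and Cldn12, Marveld2, Jam3, Mpdz, Patj, Nectin3, Dsp, Dsc2, Perp, Gja4 and Nes on the lower. Of 10 housekeeping genes 4 were also higher at 8 h and 0 lower. They were Hprt (2.08-fold), Actb (2.31-fold), Ywhaz (2.83-fold) and B2m (3.21-fold).

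The wider junction lists were set beside the 9 genes. Of all genes above the floor, 4.05% were lower and 1.58% higher in the knockout at 8 h, and 3.92% and 3.13% at 24 h. From 8 h to 24 h 6.45% were lower and 5.55% higher in wild type, and 5.26% and 6.85% in the knockout. The difference of the time courses was lower for 3.09% and higher for 5.04%. The count of each list is to be read beside these shares. Of 12 claudin genes above the floor at 8 h, 3 were lower in the knockout and 0 higher, with a median log2 difference of -0.38 (-0.23 with lower values set to the floor), against -0.01 over all genes. Besides Cldn1 these were Cldn2, a pore-forming claudin (96 against 16, at least 4.36-fold), and the endothelial claudin gene Cldn5 (185 and 56, 3.30-fold). At 24 h 3 of 11 were lower, Cldn1, Cldn5 (2.92-fold) and Cldn18 (103 in wild type and 31 in the knockout, 3.32-fold), with a median of -0.42, against 0.05 over all genes. Cldn2 shared the time course of Cldn1 in wild type, at least 4.36-fold lower at 24 h than at 8 h, and Cldn3 was 2.15-fold lower. Cldn18 was 3.96-fold higher there. Cldn2 and Cldn18 also passed in the difference of the time courses, by 2.13 and -1.49 with lower values set to the floor.

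Of the other tight junction genes, 2 of 18 were lower and 0 higher in the knockout at 8 h, with a median of -0.01. They were Jam3, a junctional adhesion molecule (2.44-fold), and Cgnl1, a relative of cingulin (2.59-fold). Cgnl1 was the 1 of 19 that was lower at 24 h (2.24-fold), around a median of 0.22. Among all genes 4.05% were lower at 8 h and 3.92% at 24 h. With time this list went both ways in both genotypes. In wild type the adhesion molecule gene F11r was 3.12-fold and Cgnl1 3.07-fold higher and the polarity scaffold gene Patj 2.0-fold higher, and Jam3 (3.63-fold), the cingulin gene Cgn (3.47-fold) and Amotl1 (2.18-fold) were lower, 3 of 18 each way, with a median of -0.20. In the knockout the same 6 genes passed in the same directions, with Marveld2 (at least 1.36-fold) also higher and Cxadr (2.57-fold) also lower, 4 of 19 each way and a median of 0.09. Among all genes 12.0% passed with time in wild type and 12.1% in the knockout. No gene of this list passed in the difference of the time courses, where 8.13% of all genes did.

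Adherens junction and desmosome genes had 2 of 19 lower at 8 h and 0 higher, with a median of 0.15. Among all genes 4.05% were lower and 1.58% higher at 8 h, and 3.92% and 3.13% at 24 h. Cdh11, a mesenchymal cadherin, read 594 against 152 (3.91-fold), and the desmosomal cadherin gene Dsc2 was 42 against 20 (at least 1.91-fold). At 24 h Cdh11 was again lower (2.05-fold) and Jup, which encodes plakoglobin, was higher (63 in wild type and 163 in the knockout, 2.59-fold), with a median of 0.09. At 24 h, set against 8 h, the desmosome genes Dsp, Dsg2 and Dsc2 were higher in both genotypes, 2.5-, 2.63- and 5.40-fold in wild type and 2.42-, 2.72- and at least 5.82-fold in the knockout, and the actin linker gene Vcl was lower in both (2.12- and 2.64-fold). That made 3 of 19 higher and 1 lower in wild type, and 4 higher, with Jup (2.63-fold), and 1 lower in the knockout, around medians of 0.06 and 0.10. Among all genes 12.0% passed with time in wild type and 12.1% in the knockout. Jup (1.32) and Nectin2 (-1.09) passed in the difference of the time courses, as did 8.13% of all genes.

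No connexin or pannexin gene passed in a genotype comparison or from 8 h to 24 h, with 5 or 6 of 15 above the floor. At 8 h the list's median was 0.16 and the largest difference that of Gjc1 (0.61), and at 24 h the median was 0.01 and the largest that of Gja4, a connexin of oocytes and vessels (-0.46). Over time the largest were Gja1 in wild type (0.51) and Panx1 in the knockout (-0.38). The keratin list held 17 genes, not all keratins, and left out Krt79, which is given with the neighbours of Krt8. Of its 11 genes above the floor at 8 h, Krt8 and Krt18 were higher and Krt23 lower (30 against 10, at least 1.36-fold), with a median of 0.00. At 24 h Krt7 was lower and Krt20 higher (35 in wild type and 84 in the knockout, 2.40-fold), with a median of 0.14. Of all genes 5.63% passed at 8 h and 7.04% at 24 h. Krt19, a type I keratin of surface and ductal epithelia, was close to the rule there, at 245 in wild type and 123 in the knockout (-0.99), after 142 and 147 at 8 h. Between 8 and 24 h Krt23 was the 1 of 11 listed keratins lower in wild type (30 and 9, at least 1.36-fold). Krt20 was the 1 of 11 higher in the knockout. Of all genes 6.45% were lower in wild type and 6.85% higher in the knockout. The difference of the time courses passed for Krt20 (1.26) and Krt19 (-1.04). Krt23 passed through readings under the floor on 3 of these 4 arrays, and with those set to the floor its difference was 0.45, short of the rule.

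**Figure D3:**
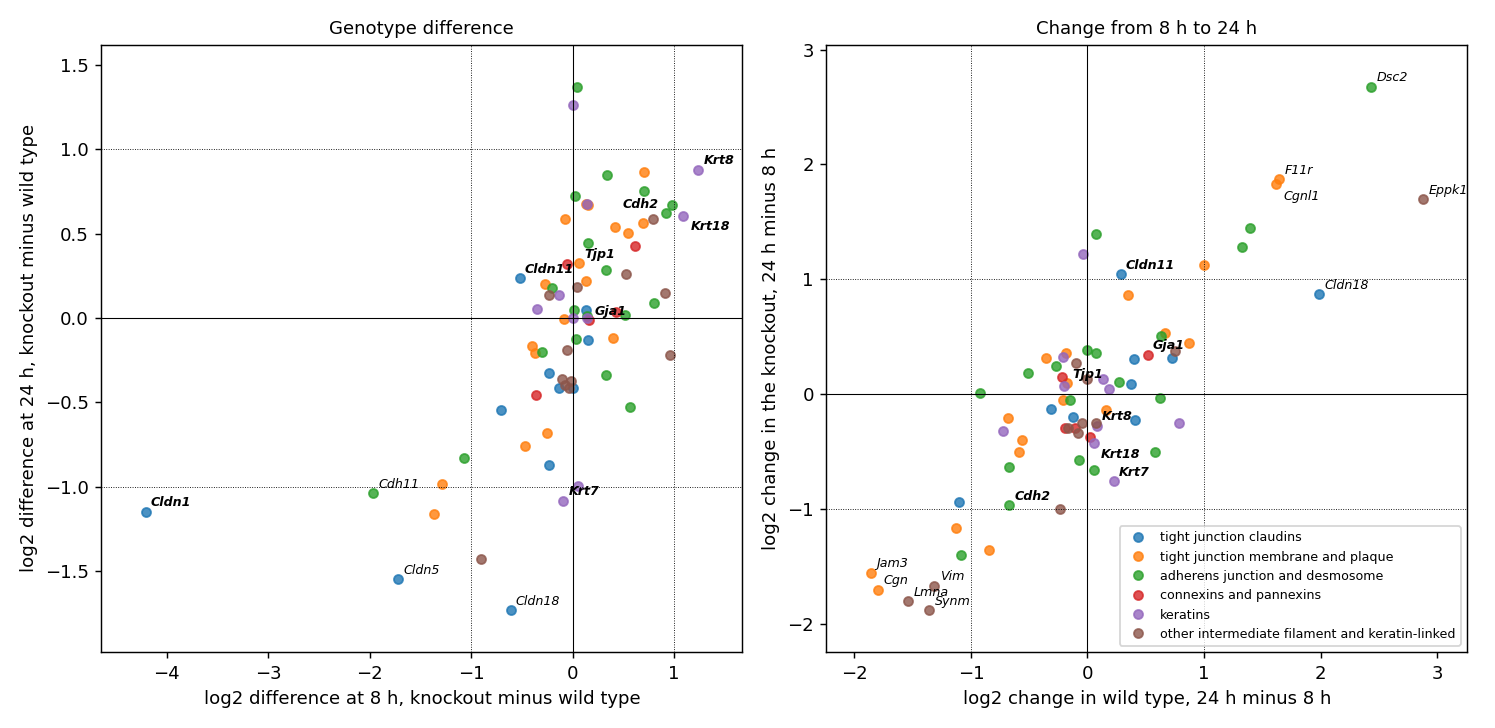
Log2 differences of junction and intermediate filament genes above the floor on both axes, coloured by list, with the 9 genes in bold. Left, knockout minus wild type at 8 h (x) and 24 h (y); right, 24 h minus 8 h in wild type (x) and in the knockout (y); dotted lines mark the size rule of 1. Krt8, Krt18 and Cdh2 lie in the upper right of the left panel and Cldn1 at its far left. Cldn1 is not in the right panel because the knockout was under the floor at both times.

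Other cell types had markers that also differed between these arrays. Fewer cells of a type and less RNA per cell cannot be told apart in such samples. At 8 h, 14 of 15 stroma and smooth muscle markers and 13 of 15 endothelial markers were lower in the knockout, with medians of -2.19 and -1.63 (-1.45 for endothelium with lower values set to the floor). Their summed intensities were 29580 in wild type and 6591 in the knockout for stroma and 3180 and 1436 for endothelium. At 24 h 3 of 14 and 3 of 15 were lower and 0 and 1 higher, with medians of -0.44 and -0.76. Of 7 theca markers 3 were lower at 8 h (median -0.99) and 0 of 6 at 24 h, where 1 was higher (median 0.14). Of leukocyte markers 4 of 13 were lower and 1 higher at 8 h (-0.57), and 3 of 12 were lower at 24 h (-0.36). Among all genes 4.05% were lower and 1.58% higher at 8 h, and 3.92% and 3.13% at 24 h. Oocyte markers had 0 of 12 past the rule at either time, with medians of -0.16 and 0.36. From 8 h to 24 h in wild type, 7 of 15 stroma, 4 of 16 endothelial and 4 of 7 theca markers were lower and 0 higher. Their medians were -0.70, -0.80 and -2.01. Leukocyte markers had 0 of 12 lower and 2 higher. The difference of the time courses passed upward for 13 of 15 stroma, 6 of 16 endothelial and 4 of 7 theca markers, and downward for 0. The medians were 1.75, 0.80 and 2.01. The lowest intensity on any array was 4, so a reading above 0 does not show that a cell type was present. Of 17 endothelial markers 15 (wild type) and 11 (knockout) were at or above the floor at 8 h, and 15 and 12 at 24 h. Of 15 stroma markers it was 15 and 14 at 8 h, and 14 and 14 at 24 h. Of all genes 6.45% were lower with time in wild type, and 5.04% passed upward in the difference of the time courses. The part of these cells in the low Cldn1, Cldn2, Cldn5, Cdh11 and Jam3 of the knockout was not tested. Their part in the time courses of Cldn1 and Cldn2 was not tested either.

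Surface epithelium markers, a list that includes Krt7, Krt8 and Krt18, are given without those 3. At 8 h 0 of 10 passed the rule, with a median of 0.13 and summed intensities of 915 in wild type and 1029 in the knockout. Krt8 and Krt18 were higher in the knockout there, and the 10 other surface epithelium markers differed by 0.52 or less. At 24 h 0 of 10 passed, with a median of -0.50 and sums of 1955 in wild type and 1409 in the knockout. Krt19, described above, is 1 of these 10. Krt7 was 2.12-fold lower in the knockout at 24 h. Between 8 and 24 h 7 of 10 were higher in wild type (median 1.22) and 3 of 10 in the knockout (median 0.54). Among them was the mesothelial gene Upk3b in wild type (259 to 703). Of all genes 5.55% were higher in wild type and 6.85% in the knockout. Over that time Krt8 and Krt18 changed by 0.08 and 0.06 in wild type. The difference of the time courses passed downward for 3 of the 10 (Krt19, Upk1b and Lrrn4) and upward for 0, with a median of -0.62. Among all genes 3.09% passed downward and 5.04% upward. That difference was -0.99 for Krt7, short of the rule on deposited values. The part of surface epithelium in the keratin values was not tested.

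**Figure D4:**
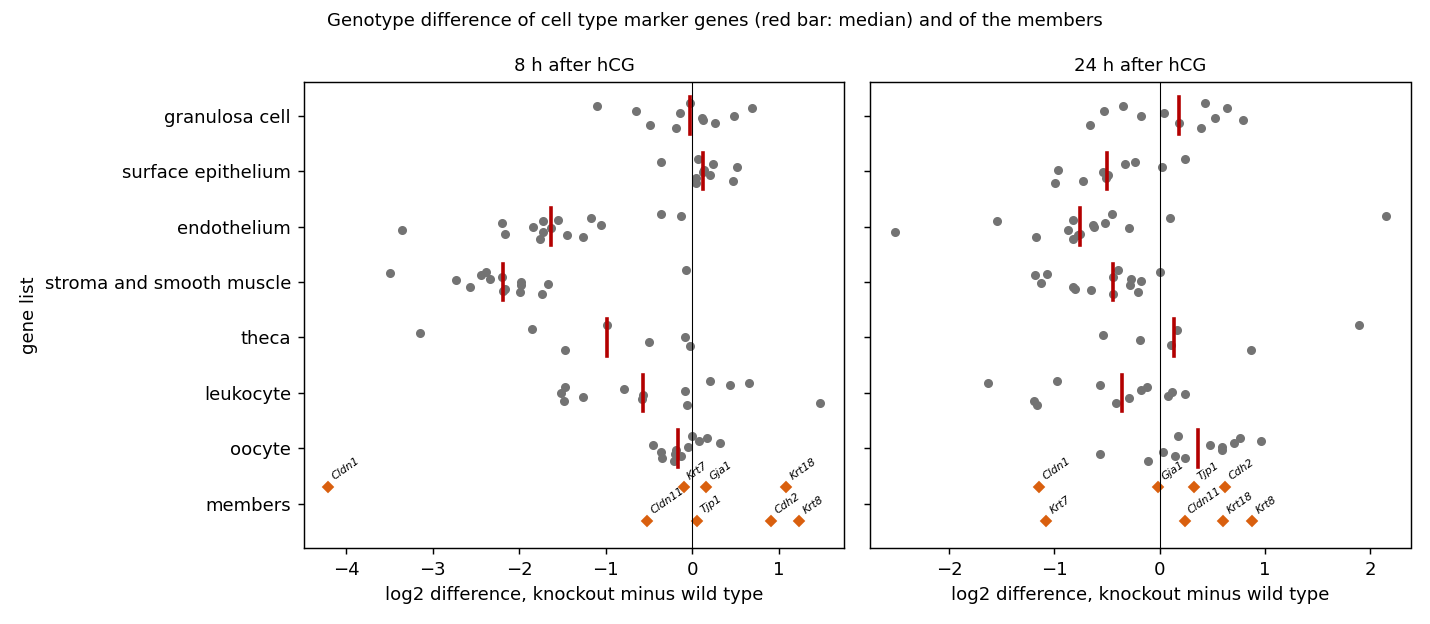
Log2 difference, knockout minus wild type, of cell type marker genes above the floor at 8 h (left) and 24 h (right). Grey points are genes, red bars list medians, and orange diamonds the members, which are left out of the marker lists. Stroma and endothelium markers lie to the left at 8 h, with medians of -2.19 and -1.63, and nearer 0 at 24 h.

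The genes most like the 3 defining genes were sought over the 4 arrays at 8 and 24 h, among 12734 genes, by the largest deviation of the mean-centred log2 profile. For Krt8 they were Ociad2 (157 (wild type) and 367 (knockout) at 8 h, 162 and 304 at 24 h), Slc37a2 and Mfap3l, with deviations of 0.02, 0.07 and 0.08. For Krt18 they were P2ry14, S100a3 and Irx3 (417 and 992 at 8 h, 422 and 694 at 24 h), with deviations of 0.08, 0.10 and 0.11. P2ry14 and S100a3 were close to the floor, at 16 to 35 on these arrays. Within 0.2 there were 7 genes for Krt8 and 15 for Krt18, and 0 for Cldn1. The nearest to Cldn1 were Rbp4, the retinol carrier (380 and 41 at 8 h, 56 and 26 at 24 h), Vgll3 and Calcb, at 0.59, 0.64 and 0.86. With the 4 h array added after quantile normalization, S100a3 (0.08) and Irx3 (0.13) stayed close to Krt18, and P2ry14 did not (3.29). For Krt8 the deviations became 0.225 (Ociad2), 0.787 (Slc37a2) and 0.772 (Mfap3l). For Cldn1 they were 0.517 (Rbp4), 0.578 (Vgll3) and 1.343 (Calcb). With 4 values per gene, likeness of this kind is a description.

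Krt8 and Krt18 are neighbours on mouse chromosome 15 in the RefSeq gene order, with no protein-coding gene between them. Of the 4 protein-coding genes before Krt8, Krt79 was also higher in the knockout at 8 h (169 against 506, log2 difference of 1.58, larger than that of Krt8 or Krt18). It read 65 and 81 at 24 h, below its 8 h values in both genotypes. Krt78 was level at 8 h (31 and 31), and on the other side Eif4b read 1280 and 1233. Further along that side Igfbp6, 4 genes from Krt18, passed in the other direction (815 against 356, -1.19). Krt79 and Igfbp6 were singled out after their values were seen. Cldn1 lies between P3h2 and Cldn16 on chromosome 16. P3h2 read 146 and 132 at 8 h, a log2 difference of -0.15 that did not pass the rule, and Cldn16, at 12 and 13, was under the floor.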

How the data were processed

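Granulosa cell RNA was measured on 1 array per group, in 5 groups, taken from the sample titles. The deposited values are whole-number intensities on a linear scale, and affy and RMA are the tools listed in the submitters' processing notes, without versions. RNA was labelled with biotin, per the labels' protocols. How the 5 arrays were normalized relative to each other was not given in the sources used here. The number of arrays limits the precision.

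Log2 of the deposited intensity was taken in Python 3.11.15 with pandas 2.3.3. Probe sets were named by the platform annotation, updated through a RefSeq table of GRCm38.p6 by 34754 identifiers; 34958 had 1 symbol, 932 several and 9211 none listed. The probe set of highest mean log2 value stood for its gene. The size rule and floor are in the results, and the 8 h to 4 h comparison used quantile-normalized values. The rule was run on simulated arrays with small noise and planted changes larger than the rule, in genes well above the floor. That run does not bear on calls near the floor or near a 2-fold ratio. Alternatives were 3 further scalings, other probe sets, floors and fold thresholds, and, added after the data were seen, a floor and probe sets chosen without the 4 h array. Named were the 9 genes, list genes past the rule (or the largest difference of a list with none) and the 3 genes most like Cldn1, Krt8 and Krt18. The genes and lists were chosen with earlier results of these data known. Listed genes with no probe set of their own symbol were not analysed here.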

Additional observations from a re-analysis of the deposited data

Results flagged for a closer look

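Some genes went opposite ways in the 2 genotypes or at the 2 times, each from single arrays, and none of these differences was tested. The genotype difference of Cldn11 was -0.52 at 8 h and 0.24 at 24 h, 0.76 apart on the log2 scale, with the knockout at 8 h (16) under the floor. That of Gja1 was 0.16 and -0.01, 0.17 apart, and its sign at 24 h changed with the scaling. Between 8 and 24 h Krt7 changed by 0.23 in wild type and -0.76 in the knockout, 0.99 apart. That was the largest gap among those of the 9 genes whose changes in the 2 genotypes had opposite signs. Krt18 changed by 0.06 and -0.43, 0.48 apart, and Krt8 by 0.08 and -0.28, 0.36 apart. Krt8 and Krt18 were chosen for a high knockout level at 8 h, from which their knockout change is taken. Tjp1 changed by -0.18 and 0.09, 0.27 apart. Probe sets of one gene gave such differences of time courses a median of 0.27 apart (90th percentile 0.81), so the gaps of Gja1 and Tjp1 were no larger than that median.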

How the results depend on the processing

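No paired analysis was possible because each group had 1 array. Of 585 values of the 9 genes under alternatives, 543 kept their side of the size rule, 21 lost it, 21 gained it and 0 were past the rule with the opposite sign. The number of the 9 genes past the rule, 3 at 8 h, was 1 at a 3-fold threshold. At 24 h it was 2, and 1 with the mean of all probe sets, with values raised to the floor or with a floor at the 50th percentile, 5 at 1.5-fold and 0 at 3-fold. Between 8 and 24 h in wild type it was 1, and 2 at 1.5-fold. In the knockout it was 1, and 0 after quantile normalization, with values raised to the floor, with the higher floor or at 3-fold, 2 with the mean of all probe sets and 3 at 1.5-fold. With median centring it was also 1, but Cdh2 in place of Cldn11. For the difference of time courses it was 1, and 2 after each of the 3 further scalings and 3 at 1.5-fold. From 4 h to 8 h it was 4, and 1 at 3-fold. Over all genes the counts past the rule, in the order of these 6 comparisons, were 727, 919, 1566, 1574, 1083 and 4102 at 2-fold, 1708, 2855, 3633, 3639, 2961 and 7442 at 1.5-fold and 269, 288, 588, 537, 332 and 1621 at 3-fold. The 4 h to 8 h count was 6900 with values as deposited (838 higher and 6062 lower), against 2461 higher and 1641 lower. That scaling moved the median of all genes from 0.08 to -0.78. Choosing the floor and probe sets without the 4 h array changed no call of the 9 genes. Rounding to whole numbers makes differences coarse near the floor, which limits Cldn11, Ocln and all Cldn1 values except wild type at 8 h.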

Other observations

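Of 12 genes of other intermediate filaments and of proteins that bind them, 0 passed the rule between genotypes at 8 h (median -0.03), with the filament-binding gene Eppk1 at 0.96 the largest, and 1 was lower at 24 h, namely Synm, which encodes synemin (501 against 186, 2.69-fold; list median -0.20). Of all genes 5.63% passed between genotypes at 8 h and 7.04% at 24 h. Between 8 and 24 h 3 of the 12 were lower and 1 higher in each genotype, where 12.0% (wild type) and 12.1% (knockout) of all genes passed. Vim, which encodes vimentin, was lower in both genotypes (2.49-fold in wild type and 3.18-fold in the knockout), as were the lamin gene Lmna (2.9- and 3.49-fold) and Synm (2.56- and 3.69-fold). Eppk1 was higher in both (7.35- and 3.24-fold), and its time courses differed by -1.18. Plec, the plectin gene, read 813 (wild type) and 1407 (knockout) at 8 h and 785 and 1179 at 24 h, differences of 0.79 and 0.59 that did not pass the rule. Of 10 housekeeping genes, 0 passed at 8 h (median 0.03), and Pgk1 was lower in the knockout at 24 h (median -0.18). With time Ywhaz was lower in wild type and Hprt and Pgk1 in the knockout, and Actb, Hprt, Ywhaz and B2m were higher at 8 h than at 4 h in the knockout after quantile normalization.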
